A study of Mus musculus with 6 samples.

Results

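The genes described here are 37 genes of glucose uptake, glycolysis, lactate formation and export, pyruvate oxidation control and oxygen-responsive transcription in HL-1 cells. They were taken by gene symbol from the 32739 genes counted in each library, as a list that sets no threshold on a measured value but was drawn up with earlier results of these data known, and all 37 were found and had enough counts to be tested. HL-1 is a mouse line of atrial heart muscle cells from a tumour driven by a viral oncogene, so it is 1 proliferating line and not adult heart muscle. All 6 libraries came from cells grown in Claycomb Medium and kept 6 h in hypoxia and then reoxygenated for 1 h, per the series design, while the sample descriptions read ReOx7h. In the vehicle group (3 libraries) the medium held vehicle alone, and in the BRL group (3 libraries) it held 5 µM of the agent labelled BRL37344, an agonist of the β3-adrenergic receptor. No library from cells kept in normal oxygen was analysed here, so the comparison addresses the agonist after hypoxia and reoxygenation and not the response to hypoxia itself.

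Glycolysis splits glucose to pyruvate in the cytosol, and lactate dehydrogenase turns pyruvate into lactate while regenerating NAD, which lets glycolysis run when oxygen is short. Lactate leaves the cell with a proton through monocarboxylate transporters, and pyruvate enters oxidation through pyruvate dehydrogenase, which pyruvate dehydrogenase kinases switch off. Hypoxia-inducible factor (HIF) accumulates in low oxygen and activates many of these genes through short DNA elements with the core ACGTG or GCGTG. Heart muscle in the adult mainly burns fatty acids and leans on glycolysis in ischaemia.

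Total expected counts, the read numbers that RSEM assigns to genes, ranged from 4440168 to 5060049 in vehicle and from 6812810 to 8332472 in BRL. Levels are given as CPM, counts per 1000000 counts, scaled by TMM, a factor that sets most genes equal between libraries, and 3 counts, taken as the limit of detection, corresponded to 0.360 to 0.676 CPM. BRL replicate 1 stood apart: mitochondrially encoded genes took 5.03% of its counts and 16.5% to 21.9% in the other 5 libraries, so results are given with and without it. The summed level of 8 cardiomyocyte markers was 6368 to 7088 CPM in vehicle and 3873 to 4904 CPM in BRL. Most of this difference lay in Myh6, the α-myosin heavy chain, the 1 marker of the 8 that passed as changed over all 6 libraries (3336 ± 306 and 1329 ± 321 CPM, SD, n = 3; edgeR adjusted p = 0.0117). Ttn was below vehicle in every BRL library without passing (−0.71, edgeR adjusted p = 0.123), Tnni3 was above in every one (0.18, edgeR adjusted p = 0.26), and Nppa, Actn2, Tnnt2, Ryr2 and Myl7 overlapped. Without BRL replicate 1, where 21.2% of all genes passed, Myh6, Ttn (−1.03, edgeR adjusted p = 3.15e-05) and Ryr2 (−0.29, 0.0162) passed as lower. Tnni3 (0.22, edgeR adjusted p = 0.0233) then passed as higher, and Nppa, Actn2, Tnnt2 and Myl7 did not pass. Of 5 smooth muscle genes, which immature cardiomyocytes also use, the sum was 3061 to 3455 CPM in vehicle and 1269 to 2643 CPM in BRL, with Myh11 under 0.282 CPM in every library. None of them passed over all 6 libraries. Without BRL replicate 1, Acta2, Tagln and Smtn passed as lower (edgeR adjusted p = 0.00549, 0.0278 and 0.0332) and Cnn1 did not. The fibroblast, endothelium and leukocyte lists, each summed separately, reached at most 5.68, 5.24 and 5.01 CPM in any library, with Dcn, Lum, Emcn, Ptprc and Csf1r at 0 in all 6. Whether the lower Myh6 and smooth muscle sum have a part in the values below was not tested, and in bulk RNA fewer cells of a kind and less RNA per cell cannot be told apart. The labels do not say that replicates were separate cultures, so p-values measure only the spread between these libraries, part or all of which could be technical.

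Of the 37 members, 1 rose with BRL and 0 fell at an adjusted p under 0.05 in edgeR (quasi-likelihood test, p-values adjusted by Benjamini and Hochberg over 12047 genes). Over all those genes 1.01% rose and 1.79% fell, or 2.81% in either direction. The member that rose was Slc16a1, the monocarboxylate transporter MCT1. At an unadjusted p under 0.05, 12 members were higher and 6 lower, where 11.6% and 10.8% of all genes were. Other tools called 7 members (DESeq2), 6 (edgeR's exact test) and 1 (limma-voom), against 5.38%, 7.84% and 2.32% of the genes each tested. The median log2 fold change of the members was 0.14, and that of all tested genes was 0.01. For the 28 members of glucose uptake, glycolysis, lactate handling and pyruvate dehydrogenase the median was 0.24.

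Among the members, 14 had every BRL library above every vehicle library and 8 had every BRL library below, and in 15 the groups overlapped. Over all tested genes these shares were 16% and 15.5%. Relative to the vehicle mean, the median member lay at −0.07 in BRL replicate 1 and at 0.21 and 0.18 in BRL replicates 2 and 3 on the log2 scale. The 28 members of glucose uptake, glycolysis, lactate handling and pyruvate dehydrogenase had medians of 0.07, 0.22 and 0.23 in these libraries. Medians of the 9 other HIF targets were −0.44, 0.15 and 0.13. Without BRL replicate 1, 18 members passed as higher and 6 as lower in the edgeR fit, where 10.3% and 10.9% of 12064 genes did, or 21.2% in either direction. Both remaining BRL libraries then lay above vehicle in 22 members and below in 9, and in 24.9% and 25.1% of all genes. The members' median in that fit was 0.20, against 0.00 for all genes.

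**Figure D1:**
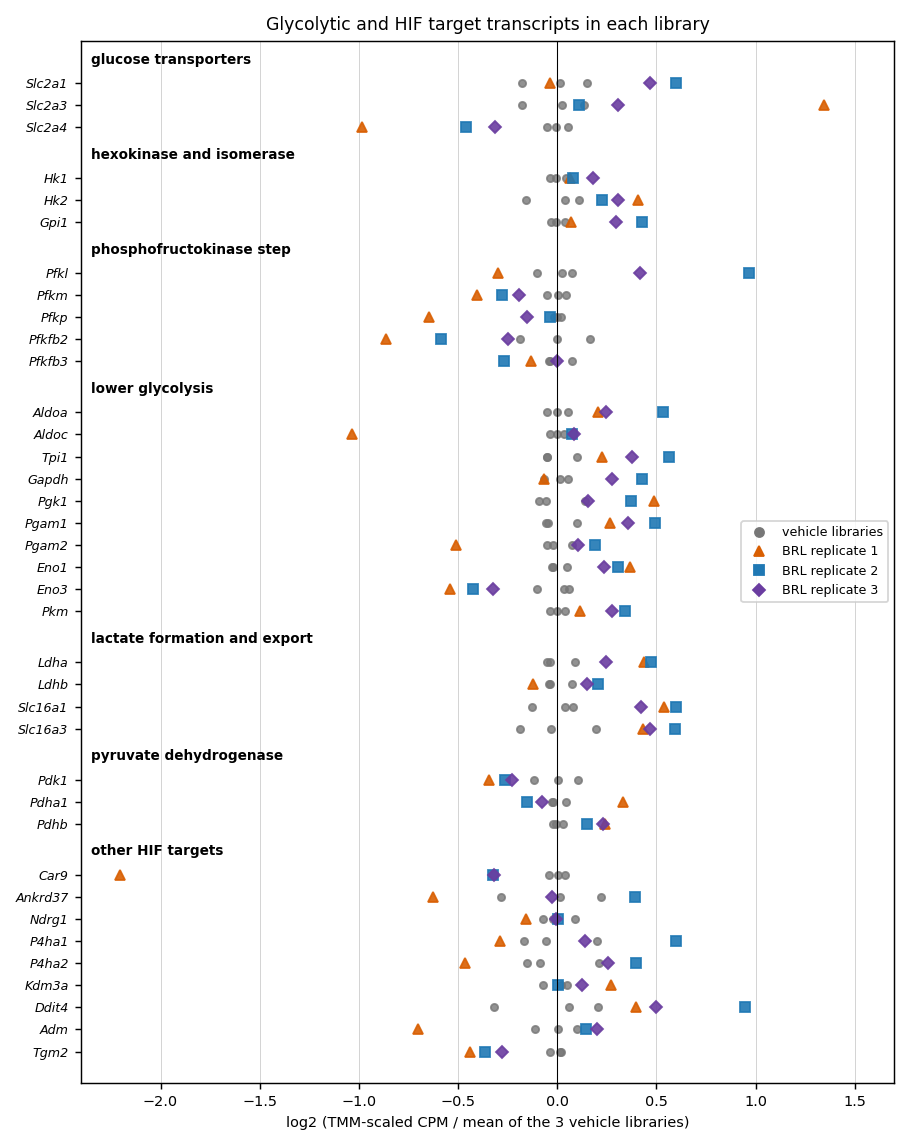
Each row is 1 member, grouped by step, and each symbol is the log2 ratio of 1 library's TMM-scaled CPM to the vehicle mean. Grey points are the 3 vehicle libraries and the triangle, square and diamond are BRL replicates 1, 2 and 3; in 14 members every BRL symbol lies to the right of every grey point and in 8 to the left.

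Lactate formation and export held the member that rose. Slc16a1 carries lactate and other monocarboxylates across the plasma membrane in either direction. Its level was 354, 315 and 364 CPM in vehicle replicates 1, 2 and 3 and 499.6, 522 and 462 CPM in BRL replicates 1, 2 and 3. All BRL libraries lay above all vehicle libraries, and BRL replicate 1 lay between the other BRL libraries. The log2 fold change was 0.52 ± 0.10 (SE, edgeR adjusted p = 0.0404), and 0.52 without BRL replicate 1 (edgeR adjusted p = 0.00056). The call was lost when any other library was left out, with edgeR adjusted p of 0.159, 0.225 and 0.19 without vehicle replicates 1, 2 and 3 and of 0.118 and 0.0666 without BRL replicates 2 and 3. Among the other scalings and filters, it was lost when library totals alone set the scale (edgeR adjusted p = 0.0779). The fold change itself stayed between 0.46 and 0.57 over all 17 alternatives.

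Slc16a3 (MCT4), the transporter that exports lactate from highly glycolytic cells, had 217, 166 and 185 CPM in vehicle and 255, 286 and 262 CPM in BRL. The groups did not overlap, and the log2 fold change of 0.50 ± 0.12 missed the threshold (edgeR adjusted p = 0.0629). It passed in DESeq2 (adjusted p = 0.00553) and in edgeR's exact test (adjusted p = 0.0122). Ldha, the lactate dehydrogenase subunit that predominates in glycolytic tissue, was the most abundant member per length. Its level was 2084, 1890.4 and 1910.0 CPM in vehicle and 2652, 2722 and 2325 CPM in BRL. The lowest BRL library lay above the highest vehicle library, at a log2 fold change of 0.39 ± 0.12 (edgeR adjusted p = 0.126, and 0.0109 in DESeq2). Ldhb, the subunit typical of oxidative heart muscle, had 179 to 194 CPM in vehicle and 169 to 213 CPM in BRL, and its groups overlapped. In the fit without BRL replicate 1, Slc16a3 (0.54) and Ldha (0.37) passed as higher at edgeR adjusted p of 0.0014 and 0.00836, and Ldhb (0.18) did not at 0.07.

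**Figure D2:**
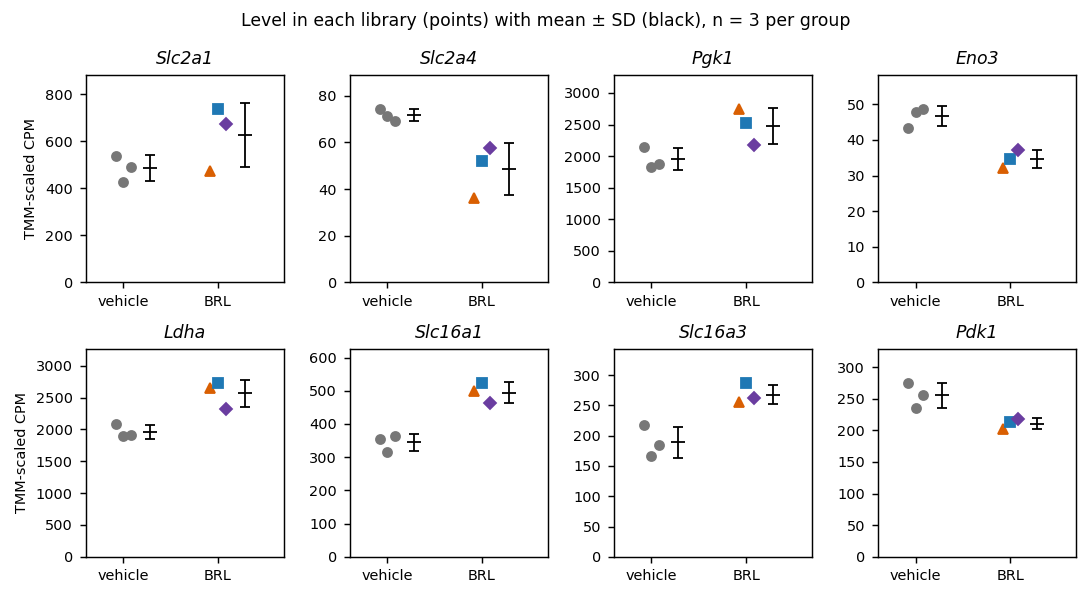
TMM-scaled CPM of selected members in each library, each panel with its own axis from 0; grey points are vehicle libraries, the orange triangle, blue square and purple diamond are BRL replicates 1, 2 and 3, and black marks are the mean ± SD of 3 libraries. Slc16a1, with 315 to 364 CPM in vehicle and 462 to 522 CPM in BRL, is the member that passed the threshold.

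The promoters of Slc16a3, Ldha, Pgk1 and Pdk1 are shown because these members are textbook HIF targets, and that of Slc16a1 because it rose. Windows of the other lactate and pyruvate members, Ldhb, Pdha1 and Pdhb, held 1, 3 and 2 cores and are not shown. Each sequence is the 250 bases before a RefSeq transcription start in build GRCm38.p6, read 5′ to 3′ on the gene's strand, with every ACGTG or GCGTG core on either strand in capitals. On the other strand these cores read CACGT and CACGC, and the palindrome CACGTG holds ACGTG on both strands and counts as 2 cores. Slc16a1 lies at chr3:104638414-104638663 on the plus strand, Slc16a3 at chr11:120948817-120949066 on the plus strand and Pgk1 at chrX:106186850-106187099 on the plus strand. Ldha has 2 windows on the plus strand, upstream at chr7:46845554-46845803 and downstream at chr7:46846832-46847081. Pdk1 lies at chr2:71872974-71873223 on the plus strand.
Slc16a1: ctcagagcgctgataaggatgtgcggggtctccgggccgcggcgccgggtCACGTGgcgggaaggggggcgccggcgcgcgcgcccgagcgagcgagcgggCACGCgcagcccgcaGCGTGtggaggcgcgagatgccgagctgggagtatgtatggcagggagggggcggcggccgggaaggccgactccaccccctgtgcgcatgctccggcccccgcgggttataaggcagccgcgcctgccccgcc
Slc16a3: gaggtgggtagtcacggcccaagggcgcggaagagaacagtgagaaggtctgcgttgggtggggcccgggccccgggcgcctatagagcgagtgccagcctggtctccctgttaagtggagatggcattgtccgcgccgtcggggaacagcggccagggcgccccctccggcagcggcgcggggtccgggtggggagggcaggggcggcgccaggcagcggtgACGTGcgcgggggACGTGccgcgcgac
Ldha upstream: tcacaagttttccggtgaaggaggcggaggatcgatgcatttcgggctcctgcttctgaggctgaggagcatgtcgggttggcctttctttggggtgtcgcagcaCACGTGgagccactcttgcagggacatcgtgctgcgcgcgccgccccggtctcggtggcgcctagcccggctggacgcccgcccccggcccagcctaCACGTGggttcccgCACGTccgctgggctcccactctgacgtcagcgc
Ldha downstream: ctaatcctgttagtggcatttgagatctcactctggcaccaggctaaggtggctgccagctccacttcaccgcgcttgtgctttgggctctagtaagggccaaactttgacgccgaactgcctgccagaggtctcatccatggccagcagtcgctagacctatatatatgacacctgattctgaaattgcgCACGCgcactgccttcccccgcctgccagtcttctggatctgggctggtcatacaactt
Pgk1: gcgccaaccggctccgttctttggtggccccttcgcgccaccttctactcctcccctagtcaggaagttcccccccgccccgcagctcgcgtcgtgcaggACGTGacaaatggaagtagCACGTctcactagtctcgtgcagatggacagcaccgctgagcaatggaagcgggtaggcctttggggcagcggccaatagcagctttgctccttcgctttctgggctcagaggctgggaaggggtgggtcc
Pdk1: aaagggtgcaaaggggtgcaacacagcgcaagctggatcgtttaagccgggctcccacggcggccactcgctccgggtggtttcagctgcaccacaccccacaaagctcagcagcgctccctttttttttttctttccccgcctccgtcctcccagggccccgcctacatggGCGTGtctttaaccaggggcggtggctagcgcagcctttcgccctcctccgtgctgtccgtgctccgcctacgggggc

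The Slc16a1 window held 4 cores, 2 of them in 1 CACGTG, and the Slc16a3 and Pgk1 windows held 2 each. The upstream Ldha window held 5 cores, 4 of them in 2 CACGTG palindromes, and the downstream window, whose start matches an annotated transcript, held 1. The Pdk1 window shown held 1 core and its other window held 0, and the level of Pdk1 was lower in every BRL library. Of the 37 members, 33 matched the RefSeq promoter table, with 50 windows. Of these 33 genes, 30 (90.9%) had a core of either kind in at least 1 window, against 41.5% of the 27025 genes in the table and 63.1% of the 9122 of them tested here. A gene with more windows has more chances of a match. Counted by window, a core was in 80% of the 50 member windows. The share was 38.6% of all 32851 windows and 56.9% of the 11676 windows of tested genes. ACGTG was in the windows of 54.5% of the members, 18.5% of all genes and 25.8% of tested genes, and GCGTG in 72.7%, 30.9% and 51.5%. Members were chosen in part as known HIF targets, and median GC content was 61% in their windows, 52.4% in all windows and 60.4% in those of tested genes. A match describes the letters and is not a binding site. It was found in members above, below and overlapping vehicle. With a core in 30 of the 33 genes, this cannot show whether a match goes with direction.

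Of the 3 glucose transporters, none passed, and the types differed in direction. Slc2a1 (GLUT1), the transporter for basal uptake and a classical HIF target, had 539, 429 and 490.3 CPM in vehicle and 475, 737 and 672 CPM in BRL. BRL replicates 2 and 3 lay above all vehicle libraries while BRL replicate 1 lay among them, and the log2 fold change was 0.37 ± 0.17 (edgeR adjusted p = 0.244). Leaving out BRL replicate 1 gave 0.54 (edgeR adjusted p = 0.000899). Slc2a4 (GLUT4), the insulin-responsive transporter of muscle and fat, had 74.2, 71.3 and 69.1 CPM in vehicle and 36.1, 52.1 and 57.5 CPM in BRL. Every BRL library was below every vehicle library, at −0.56 ± 0.16 (edgeR adjusted p = 0.102), and at −0.38 without BRL replicate 1 (edgeR adjusted p = 0.00773). Slc2a3 (GLUT3), a high-affinity transporter of neurons, stayed at 5.07 to 7.09 CPM outside BRL replicate 1, which had 14.6 CPM. Its counts were not whole in all 6 libraries, and of the reads on Slc2a3 and the genes it matches at 97% identity over at least 100 bases, 81.9% were assigned to the latter, mainly Snf8. With those counts added the log2 fold change went from 0.70 to 0.14 (edgeR adjusted p = 0.28 and 0.551). The sum takes all counts of Snf8, 1183 against 293 of Slc2a3, so it mostly follows Snf8. It cannot show how the reads of Slc2a3 were assigned.

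The shares of isoenzymes were compared per length, from the RSEM fraction of transcripts, within each library. Slc2a4 made up 13.6% ± 1.32 (SD, n = 3) of the 3 transporters in vehicle and 7.92% ± 0.994 in BRL. By library the share was 13.0%, 15.2% and 12.8% in vehicle and 7.74%, 7.03% and 9.00% in BRL. The groups did not overlap, and BRL replicate 1 lay between the other BRL libraries. An exact two-sided permutation test of 3 against 3 libraries cannot go below p = 0.1, the value here, and after adjustment over the 11 shares computed the smallest p was 0.157.

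At the entry of glycolysis, all 3 members had every BRL library above every vehicle library, and none passed. The share of all tested genes above in this way was 16%. Hk2, the inducible hexokinase that binds mitochondria in muscle, had 248, 216 and 260.1 CPM in vehicle and 319.5, 283 and 298 CPM in BRL. BRL replicate 1 was the highest, and the log2 fold change was 0.32 ± 0.11 (edgeR adjusted p = 0.139). Gpi1, glucose-6-phosphate isomerase, had 1149, 1184 and 1127 CPM in vehicle and 1208, 1553 and 1418 CPM in BRL, where replicate 1 lay close to vehicle (0.27 ± 0.12, edgeR adjusted p = 0.238). Hk1, the widely expressed hexokinase, had 241 to 255 CPM in vehicle and 259 to 281 CPM in BRL. Hk2 held 51.7% ± 1.97 of the 2 hexokinases per length in vehicle and 55.0% ± 0.322 in BRL (SD, n = 3; exact permutation p = 0.1). When BRL replicate 1 was left out, Hk2 (0.27, edgeR adjusted p = 0.0247) and Gpi1 (0.37, edgeR adjusted p = 0.00287) passed as higher and Hk1 (0.14, edgeR adjusted p = 0.158) did not.

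The phosphofructokinase step, where glycolytic flux is set, was the step whose median lay lowest among those of glycolysis (−0.26, and −0.12 without BRL replicate 1). Pfkp, the platelet-type subunit and the most abundant per length, had 593, 599 and 607 CPM in vehicle and 383, 584 and 539 CPM in BRL. BRL replicate 1 was far below the rest, and the log2 fold change moved from −0.26 to −0.09 without it. Pfkm, the muscle subunit, had 192, 185 and 197 CPM in vehicle and 144, 157 and 167 CPM in BRL (−0.29 ± 0.10, edgeR adjusted p = 0.131). All its BRL libraries were below vehicle. Pfkl, the liver-type subunit, had 137, 121 and 133 CPM in vehicle and 106, 255 and 174 CPM in BRL. Its BRL libraries fell on both sides of vehicle (0.45 ± 0.26, edgeR adjusted p = 0.355). After removal of BRL replicate 1, Pfkl passed as higher (0.72, edgeR adjusted p = 0.00138) and Pfkm as lower (−0.23, edgeR adjusted p = 0.0268).

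Pfkfb2 and Pfkfb3 encode bifunctional enzymes that make and break fructose 2,6-bisphosphate, the activator of phosphofructokinase. Pfkfb2, the heart isoform, had 52.7, 60.0 and 67.3 CPM in vehicle and 33.0, 40.0 and 50.6 CPM in BRL. All BRL libraries lay below vehicle (−0.54 ± 0.17, edgeR adjusted p = 0.112), and without BRL replicate 1 it passed as lower (−0.40, edgeR adjusted p = 0.0283). Its exons overlap those of Yod1, to which 24.5% of their summed counts were assigned. Pfkfb3, the inducible isoform, had 52.5 to 56.9 CPM in vehicle and 44.9 to 53.9 CPM in BRL, with overlap. Pfkfb2 held 43.1% to 52.3% of the pair per length in vehicle and 32.3% to 40.7% in BRL, and Pfkl 12.6% ± 1.60 of the phosphofructokinase subunits in vehicle and 16.7% ± 3.15 in BRL (SD, n = 3; exact permutation p = 0.1 for each).

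In lower glycolysis, from aldolase to pyruvate kinase, 6 of 10 members had every BRL library above vehicle, 1 had every BRL library below and 3 overlapped. The shares of all tested genes above and below in this way were 16% and 15.5%. Aldoa, the muscle aldolase, had 1536, 1476 and 1425 CPM in vehicle and 1702, 2141 and 1756 CPM in BRL (0.34 ± 0.13, edgeR adjusted p = 0.178). Tpi1, triosephosphate isomerase, had 736, 663 and 664 CPM in vehicle and 805, 1015 and 892 CPM in BRL (0.40 ± 0.12, edgeR adjusted p = 0.108). In both, BRL replicate 2 was the highest and BRL replicate 1 the closest to vehicle. Pgk1, phosphoglycerate kinase and the most abundant member of this step per length, had 2149, 1833 and 1878 CPM in vehicle and 2743, 2529.6 and 2175 CPM in BRL (0.35 ± 0.14, edgeR adjusted p = 0.192). There BRL replicate 1 was the highest and BRL replicate 3 lay just above vehicle replicate 1.

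Pgam1, the widely expressed phosphoglycerate mutase, had 737, 659.8 and 664 CPM in vehicle and 826, 967 and 879 CPM in BRL (0.37 ± 0.11, edgeR adjusted p = 0.102). Eno1, the enolase of most tissues, had 973, 925 and 923 CPM in vehicle and 1214, 1164 and 1107 CPM in BRL (0.30 ± 0.10, edgeR adjusted p = 0.135). Pkm, the pyruvate kinase of muscle and proliferating cells, had 741, 702 and 719 CPM in vehicle and 782, 912 and 874 CPM in BRL (0.25 ± 0.10, edgeR adjusted p = 0.21). In all 3 the groups were separate, and Tpi1, Pgam1 and Eno1 passed in DESeq2 at adjusted p of 0.0164, 0.0106 and 0.0291. Gapdh, often used as a reference gene, had 446, 459 and 423 CPM in vehicle and 422, 597 and 537 CPM in BRL, and its groups overlapped (0.23 ± 0.14, edgeR adjusted p = 0.361). Its transcript matches 51 other annotated genes, 33 of them with counts, but these held 0.929% of the summed counts. Without BRL replicate 1, 7 of the 10 members of lower glycolysis passed as higher, 1 passed as lower and 2 did not pass. In that fit 10.3% of all genes passed as higher and 10.9% as lower. The 7 were Aldoa, Tpi1, Gapdh, Pgk1, Pgam1, Eno1 and Pkm, with log2 fold changes of 0.27 to 0.48 and edgeR adjusted p of 0.000961 to 0.0472.

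The muscle and brain isoenzymes of lower glycolysis had other values. Eno3, the muscle enolase, had 43.5, 47.8 and 48.6 CPM in vehicle and 32.0, 34.8 and 37.3 CPM in BRL. Every BRL library was below vehicle, at −0.43 ± 0.11 (edgeR adjusted p = 0.0749), and the gene passed as lower without BRL replicate 1 (−0.37, edgeR adjusted p = 0.013) and in the exact test (adjusted p = 0.0328). Per length, Eno3 held 6.58%, 7.35% and 7.03% of the 2 enolases in vehicle and 3.72%, 4.77% and 4.48% in BRL (exact permutation p = 0.1). Pgam2, the muscle mutase, had 87.2 to 95.2 CPM in vehicle and 63.7, 103 and 97.3 CPM in BRL, and Aldoc, the brain aldolase, 44.7 to 46.9 CPM in vehicle and 22.4, 48.3 and 48.6 CPM in BRL. For both genes BRL replicate 1 was the lowest library and the others lay above vehicle. Their shares were nonetheless lower in every BRL library, at 23.4% ± 1.78 and 18.4% ± 2.89 for Pgam2 and 2.71% ± 0.110 and 1.78% ± 0.547 for Aldoc (SD, n = 3; exact permutation p = 0.1 for each), beside the higher Pgam1 and Aldoa.

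**Figure D3:**
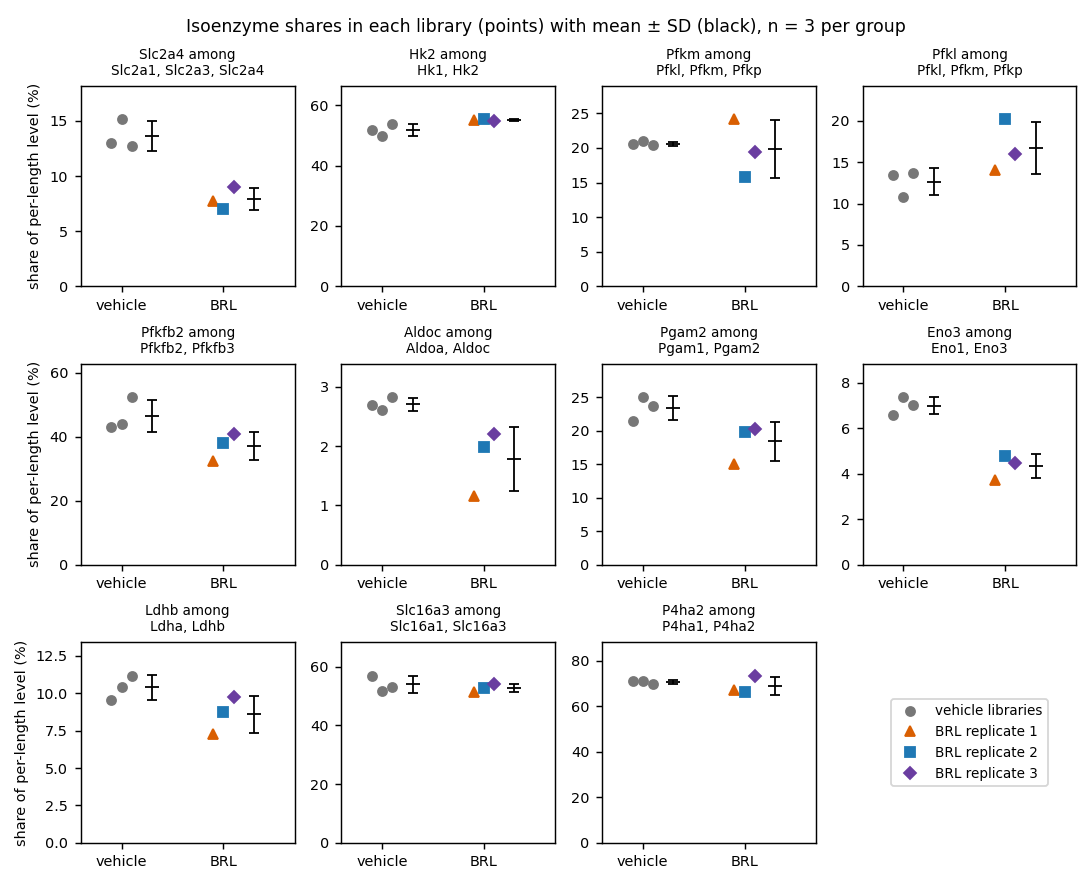
Share of an isoenzyme in the summed per-length level of the genes named in each panel title (%, axes from 0), by library, with mean ± SD (n = 3) in black. Slc2a4, Pfkfb2, Aldoc, Pgam2 and Eno3 lie lower in every BRL library, Hk2 and Pfkl higher, and Pfkm, Ldhb, Slc16a3 and P4ha2 overlap.

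Of the 11 shares, 2 were higher and 5 lower in every BRL library than in every vehicle library. The share of Slc16a3 among the 2 lactate transporters was 53.9% ± 2.75 in vehicle and 52.7% ± 1.33 in BRL (SD, n = 3; exact permutation p = 0.6), so the transporters had similar per-length levels. Ldhb held 10.4% ± 0.807 of the lactate dehydrogenase subunits in vehicle and 8.59% ± 1.24 in BRL (SD, n = 3; exact permutation p = 0.2). When shares were taken from expected counts instead of per-length values, several differences moved by over 1.5 times and none changed sign. Those of Pgam2 (−4.98 to −2.76 percentage points) and Slc16a3 (−1.23 to −0.258) became smaller, and those of Pfkl (4.11 to 6.54) and Pfkm (−0.822 to −1.55) larger. The difference of Eno3 moved by less than that, from −2.66 to −1.82.

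**Figure D4:**
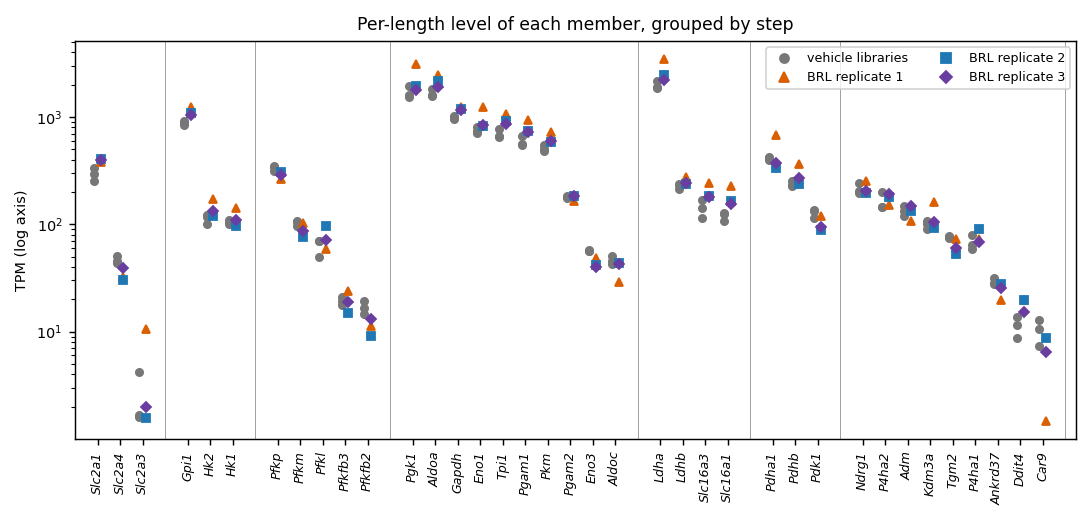
TPM (log axis) of each member in each library, ordered by level within a step; grey points are vehicle libraries and the triangle, square and diamond are BRL replicates 1, 2 and 3. Ldha, at a mean of 1964 in vehicle, and Pgk1 and Aldoa next to it lie highest, and Slc2a3 lies lowest at 2.48.

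Per length, the order of levels in vehicle ran from Ldha (1964 ± 179.5 TPM, transcripts per 1000000 transcripts, SD, n = 3) over Pgk1 (1687 ± 211) and Aldoa (1668 ± 135) to Gapdh (986 ± 39.0) and Gpi1 (881 ± 35.5). Pgk1 and Aldoa did not differ beyond their spread. In BRL the means were 2715 ± 666 for Ldha, 2286 ± 712 for Pgk1 and 2182 ± 292 for Aldoa, and again these neighbours lay within their spread. TPM include mitochondrial transcripts, whose low share in BRL replicate 1 moved with high values for most members there, and its part in them was not tested. The 37 members took 1.47% to 1.64% of all counts in vehicle and 1.76% to 1.97% in BRL, with BRL replicate 1 the highest. All counts include mitochondrial ones, which made up only 5.03% of that library against 16.5% to 21.9% elsewhere. Its rank is therefore no measure of member levels, and shares without mitochondrial counts were not computed. By TMM-scaled CPM the median member was lowest in that same library, at a log2 ratio of −0.07 to the vehicle mean.

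Around pyruvate dehydrogenase no member passed. Pdk1, a kinase that inactivates the complex and a HIF target, had 274, 236 and 256 CPM in vehicle and 201, 213 and 218 CPM in BRL. All BRL libraries lay below vehicle (−0.28 ± 0.10, edgeR adjusted p = 0.151), and without BRL replicate 1 it passed as lower (−0.24, edgeR adjusted p = 0.0335). Pdhb, the β subunit of the first enzyme of the complex, had 227, 218 and 221 CPM in vehicle and 262, 246 and 261 CPM in BRL. All BRL libraries lay above (0.21 ± 0.09, edgeR adjusted p = 0.212, and 0.0449 without BRL replicate 1). Pdha1, the α subunit, had 736, 733 and 768 CPM in vehicle and 939, 671 and 706 CPM in BRL. BRL replicate 1 was above and BRL replicates 2 and 3 below all vehicle libraries, so its log2 fold change went from 0.05 to −0.11 without BRL replicate 1.

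Of 12 further genes of pyruvate entry and its control, none passed (0 higher and 0 lower, and 3 at an unadjusted p under 0.05). These 3 were lower, as were 10.8% of all genes at that level. The smallest p was that of Pdk4, a kinase of the complex induced by fatty acids and fasting, with 195, 174 and 187 CPM in vehicle and 144, 130.4 and 145 CPM in BRL. The groups were separate (−0.41 ± 0.10, edgeR adjusted p = 0.0612), and its counts were not whole in all 6 libraries. Pdp1, a phosphatase that reactivates the complex, and Pdk3, another kinase, were chosen after their values were seen. Pdp1 had 64.8 to 71.3 CPM in vehicle and 47.4 to 55.6 CPM in BRL (−0.42, edgeR adjusted p = 0.0682), and Pdk3 173 to 180.0 CPM in vehicle and 127 to 155 CPM in BRL (−0.28, edgeR adjusted p = 0.173). With BRL replicate 1 left out, where 21.2% of all genes passed, 2 of the 12 genes did, both lower: Pdk4 (−0.42, edgeR adjusted p = 0.00182) and Pdp1 (−0.48, edgeR adjusted p = 0.0019).

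Of 5 genes listed as partners and relatives of the lactate transporters, 2 had enough counts to test and neither passed. Slc16a10, an aromatic amino acid transporter of the same family, had the smaller p, with 18.5 to 23.3 CPM in vehicle and 21.9 to 24.2 CPM in BRL (0.13, edgeR adjusted p = 0.585). The other was Bsg, basigin, the chaperone that brings MCT1 and MCT4 to the membrane, with 785, 732 and 731 CPM in vehicle and 513, 946 and 914 CPM in BRL. BRL replicate 1 was the lowest library and the other BRL libraries the highest, at 0.08 over all libraries and 0.32 without BRL replicate 1 (edgeR adjusted p = 0.861 and 0.00519). Of 13 other glycolytic isoenzymes and regulators, 6 were tested and none passed. Among these Tigar, a phosphatase of fructose 2,6-bisphosphate, had the smallest p, with 14.6 to 14.9 CPM in vehicle and 18.4 to 21.0 CPM in BRL (log2 fold change 0.45, edgeR adjusted p = 0.0969).

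The 9 other HIF targets showed no common direction. In 1 every BRL library was above vehicle, in 2 every one was below and in 6 the groups overlapped. Of all tested genes, 16% were above and 15.5% below in this way. Ddit4 (REDD1), an inhibitor of mTORC1 signalling, had 13.9, 9.65 and 12.6 CPM in vehicle and 15.9, 23.2 and 17.0 CPM in BRL. All BRL libraries were above (0.63 ± 0.21, edgeR adjusted p = 0.127), and without BRL replicate 1 it passed as higher (0.74, edgeR adjusted p = 0.0125). Tgm2, a transglutaminase that cross-links proteins, had 172, 178 and 179 CPM in vehicle and 130.2, 137 and 145 CPM in BRL. All BRL libraries were below (−0.36 ± 0.09, edgeR adjusted p = 0.0743), and DESeq2 and the exact test called it at adjusted p of 0.0361 and 0.0431. Without BRL replicate 1 it passed as lower (−0.32, edgeR adjusted p = 0.00538). Its exons overlap those of Rprd1b, which held 31.0% of their summed counts, and with these counts added the log2 fold change was −0.26 (edgeR adjusted p = 0.138). That sum holds all counts of Rprd1b, whether or not the reads fit Tgm2.

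P4ha1 and P4ha2, catalytic subunits of the collagen prolyl 4-hydroxylases, had the same extremes. P4ha1 had 138, 107 and 116 CPM in vehicle and 98.6, 182 and 132 CPM in BRL, and P4ha2 234, 183 and 191 CPM in vehicle and 147, 267 and 242 CPM in BRL. In both, BRL replicate 1 was the lowest of all libraries and BRL replicate 2 the highest, and the log2 fold changes were 0.19 and 0.11. Without BRL replicate 1 both passed as higher, at 0.39 and 0.34 (edgeR adjusted p = 0.0392 and 0.022). Car9, a membrane carbonic anhydrase tightly controlled by HIF, was low, with 6.50 to 6.89 CPM in vehicle and 1.46, 5.35 and 5.38 CPM in BRL. BRL replicate 1 was far below the rest, and the log2 fold change was −0.72 with it and −0.32 without it (edgeR adjusted p = 0.354 and 0.344). Its counts were not whole in 4 libraries, and Gm12454, whose exons overlap, held 57.8% of the summed counts of both genes. How many of these reads fit both genes was not measured.

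Ndrg1, a stress-responsive gene and the most abundant of the other HIF targets per length, had 422, 376 and 389 CPM in vehicle and 354, 397 and 394 CPM in BRL, with overlap. Adm, the vasodilator peptide adrenomedullin, had 107 to 124 CPM in vehicle and 71.2, 128 and 133 CPM in BRL. As with Car9 and the prolyl hydroxylase subunits, BRL replicate 1 was the lowest library of Adm. Kdm3a, a histone H3 lysine demethylase, had 280.3 to 305 CPM in vehicle and 296 to 356 CPM in BRL, and Ankrd37 10.7 to 15.2 CPM in vehicle and 8.47 to 17.2 CPM in BRL. None of these 4 passed, with or without BRL replicate 1. Their log2 fold changes over all libraries lay between −0.06 and 0.14, with edgeR adjusted p of 0.468 to 0.967. Exons of Ankrd37 overlap those of Lrp2bp, which held 19.9% of their summed counts, and with these added its log2 fold change went from −0.03 to −0.37 (edgeR adjusted p = 0.402). All counts of Lrp2bp enter that sum, whether or not the reads fit Ankrd37.

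**Figure D5:**
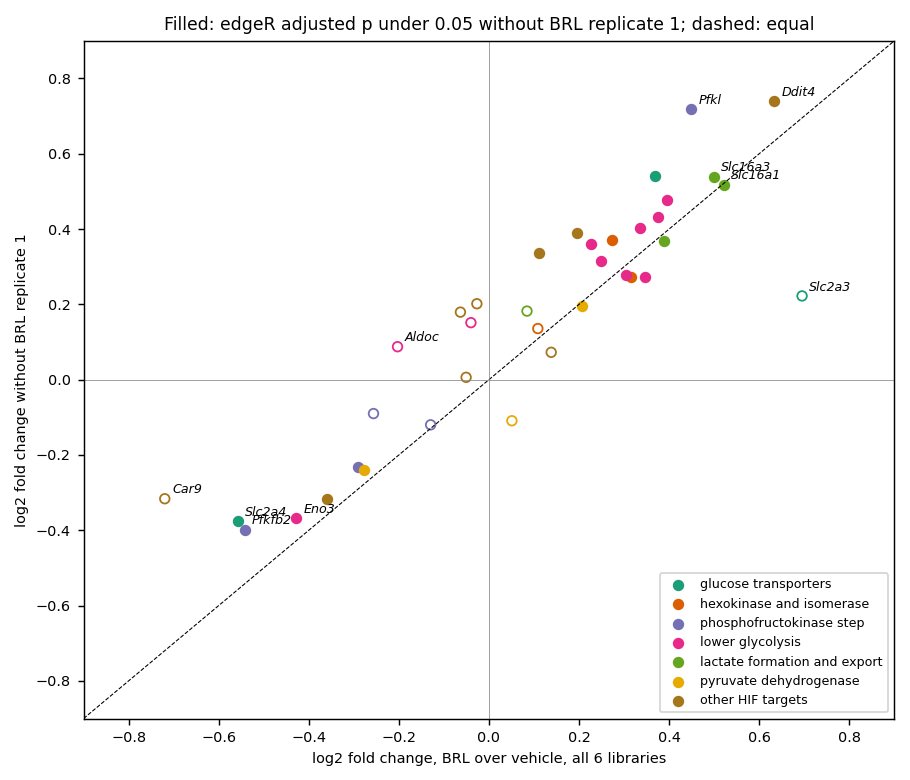
Log2 fold change of each member, BRL against vehicle, over all 6 libraries (x axis) and without BRL replicate 1 (y axis), coloured by step. Filled symbols passed the threshold without that library and the dashed line marks equal values: Slc16a1 has 0.52 on both axes, Pfkl goes from 0.45 to 0.72 and Slc2a3 from 0.70 to 0.22.

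Of 27 further HIF targets, 26 were tested and none passed. At an unadjusted p under 0.05, 1 was lower and 0 higher, where 10.8% and 11.6% of all genes were. In 1 every BRL library lay above vehicle, in 2 every one lay below and in 23 the groups overlapped. Of all tested genes, 16% lay above and 15.5% below. The median log2 fold change of the list was −0.10 over all libraries and 0.00 without BRL replicate 1.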

How the data were processed

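RNA-seq of 6 HL-1 libraries was used, 3 with vehicle and 3 with BRL, grouped by sample title. Total RNA went into libraries of the Illumina TruSeq RNA kit, per the labels' protocols. Reads were processed with cutadapt, Bowtie and RSEM 1.17 on build NCBIM37, per the submitters' processing notes; settings, strand among them, were not given in the sources used here. For each gene the deposited sample files give an RSEM expected count, not normalized, and an RSEM fraction of transcripts, which the authors' program corrects for length and which sums to 1 per library. Fractions were multiplied by 1000000 (TPM). The series table was not used. RSEM divides a read that fits several loci among them, so 13.2% to 15.6% of the values in a library were more than 0.005 from a whole number, including those of 17 members in at least 1 library. These members are less certain, and reads of overlapping genes may not be separable.

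Rounded expected counts were tested with edgeR 4.0.16 under R 4.3.3, using filterByExpr (minimum count 10), TMM factors and a quasi-likelihood F-test whose model held group alone. Benjamini-Hochberg adjustment covered the 12047 genes that passed the filter, a call needed an adjusted p under 0.05, and standard errors were computed as |log2 fold change| / √F. Isoenzyme shares were compared with an exact two-sided permutation test, adjusted over 11 shares. Alternatives were other scalings and filters, DESeq2 1.42.0, limma-voom 3.58.1, edgeR's exact test, a replicate block and leaving out each library. Summing members with genes matching at 97% identity over 100 bases (BLAST 2.17.0 on GENCODE M21 transcripts) was chosen after seeing the data. Such sums take all counts of the matching genes and do not measure shared reads. Symbols were matched for 88.4% of genes. Promoter sequences are RefSeq's for GRCm38.p6, not the build of the counts; Ndrg1, Slc2a3, Slc2a4 and Tgm2 were not matched. Members and lists were chosen with earlier results of these data known. Values by library are given for members past the threshold with or without BRL replicate 1 and for the most abundant member and the member of smallest p of each step; of other pathway genes, the one of smallest p per list is named. Some genes that this rule takes are not reported here. In simulated data of 11957 genes, 50 were changed at each of 4 sizes. The test found 13 of those changed 1.5-fold, 42 of those changed 2-fold, 49 at 4-fold and all 50 at 8-fold, while 11 of its 165 calls were unchanged genes. Changed genes were drawn only from those above a minimum vehicle level, and counts were drawn independently for each library. No simulated library departed as a whole as BRL replicate 1 did, so these numbers may not hold for the real libraries.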

Additional observations from a re-analysis of the deposited data

How the results depend on the processing

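Over 17 alternatives, 577 of 629 member values kept direction and side of the threshold, 35 newly passed, 7 no longer passed and 10 changed sign. The members called higher (1) became 0 with library totals alone and with the replicate block, 2 without a filter on low counts, 6 in DESeq2, 2 in the exact test and 0 to 18 when a library was left out; those called lower (0) became 1 in DESeq2, 4 in the exact test and 0 to 6 with a library left out. Of the further pathway genes, 0 to 9 were called higher and 0 to 7 lower with a library left out, and 1 was lower with upper-quartile scaling, 1 without a filter, 3 in DESeq2 and 4 in the exact test. Over all genes, higher calls (122) were 77 with library totals, 282 without a filter, 288 in DESeq2, 418 in the exact test and 17 to 1240 with a library left out; lower calls (216) were 330, 332, 527 and 15 to 1315 under the last 4. The highest counts came without BRL replicate 1; the cause was not tested.

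The values that changed sign did so when 1 library was left out. Over the 6 such fits, log2 fold changes ran from −0.38 to 0.087 for Aldoc, −0.17 to 0.15 for Pgam2, −0.11 to 0.14 for Pdha1, −0.29 to 0.20 for Ankrd37, −0.084 to 0.0061 for Ndrg1 and −0.22 to 0.18 for Adm, each positive end, or for Pdha1 the negative one, without BRL replicate 1. Ankrd37 (0.10) and Ndrg1 (0.0059) were also positive without vehicle replicate 1. P4ha1 ran from −0.057 to 0.39 and P4ha2 from −0.056 to 0.34, negative without BRL replicate 2. The difference in share ran from −3.00 to 1.15 percentage points for Pfkm and from −2.38 to 0.290 for Slc16a3. No scaling moved the median log2 fold change of all genes by over 0.1.

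Replicate numbers are not stated to pair libraries. Deviations of same-numbered libraries correlated at 0.102, −0.021 and −0.018, and not every library correlated best with its own number. With the numbers as a replicate block, 63 genes were higher and 150 lower, and Slc16a1 had an edgeR adjusted p of 0.0837.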

Other observations

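Genes that store glucose as glycogen or divert it to the pentose phosphate pathway did not pass the threshold: of 16 listed, 15 were tested, with 0 higher and 0 lower in edgeR, 5 at an unadjusted p under 0.05 and 1 called by each of DESeq2 and the exact test. Of these 5, 3 were higher and 2 lower, where 11.6% and 10.8% of all genes were. The glycogen and pentose phosphate genes named here were chosen after their values were seen. Pygb, the brain form of glycogen phosphorylase, had 378, 389.6 and 399.7 CPM in vehicle replicates 1, 2 and 3 and 345, 243 and 270.4 CPM in BRL replicates 1, 2 and 3, with all BRL libraries below vehicle (−0.44 ± 0.14, edgeR adjusted p = 0.109). Tkt and Taldo1, transketolase and transaldolase of the non-oxidative pentose phosphate branch, had every BRL library above vehicle. Tkt went from 159 ± 4.20 to 192 ± 10.4 CPM (0.28, edgeR adjusted p = 0.129) and Taldo1 from 47.8 ± 3.52 to 60.0 ± 2.57 CPM (SD, n = 3; 0.33, edgeR adjusted p = 0.113). Without BRL replicate 1 these 3 genes passed, Pygb as lower and Tkt and Taldo1 as higher. Of the 15 genes tested, 2 were higher and 2 lower in that fit, where 10.3% and 10.9% of all genes were.

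Of 10 genes of the shuttles that carry cytosolic NADH electrons into mitochondria, none passed. At an unadjusted p under 0.05, 1 was higher, where 11.6% of all genes were. The gene was Mdh2, the mitochondrial malate dehydrogenase, with 411, 416 and 421 CPM in vehicle and 512, 488 and 486 CPM in BRL. All BRL libraries lay above vehicle (0.25 ± 0.09, edgeR adjusted p = 0.154). Mdh1, the cytosolic enzyme, chosen after its values were seen, had −0.04 (edgeR adjusted p = 0.81).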
